A study of Mus musculus with 2 samples.

Results

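The 6 microRNA genes described here are Mir375, Mir122, Mir192, Mir194-2, Mir215 and Mir194-1, which are best known from endocrine cells, liver and gut. They were taken by name from the 1973 gene rows of a small RNA sequencing experiment on mouse limb, and all 6 had a row. The limbs came from B6NCrl embryos at 12.5 days, with males and females mixed and no treatment or altered gene named in the labels. The experiment has 1 group of 2 biological replicates, a pool of 88 embryos (replicate 1) and a pool of 68 embryos (replicate 2). A pool averages over all its embryos and all cells of the limb, so fewer cells of a type and less RNA per cell cannot be told apart. With 1 group the design holds no contrast between conditions. It allows the level of each gene, its spread over the replicates and the ratios between genes within a library.

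A microRNA gene is transcribed into a longer RNA from which a hairpin is cut, and 1 or both arms of the hairpin become mature microRNAs of about the same size. Bases 2 to 8 of a mature microRNA, the seed, pair with target messages. Mir375 is a gene of pancreatic islets, pituitary and scattered endocrine cells of the gut, where it acts in hormone secretion and in the growth of the islet cell mass. Mir122 makes the dominant microRNA of hepatocytes. Mir192, Mir194-2, Mir215 and Mir194-1 form a pair of small clusters known from intestine, liver and kidney epithelium. The limb bud has no endoderm. It is built of mesoderm with a cover of ectoderm, and vessels and nerves grow into it.

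The sequences decide which of these genes can be counted separately, so they are shown before the values. Sequences are from RefSeq on GRCm38.p6, which matches mm10, and 5 of the 6 genes matched its table. Mir122 and the 3p arm of Mir375 are named only. Counts are per gene, so the arm that the reads of Mir375 came from was not resolved, and its 3p seed is not shown. The printed 5p seed of Mir375 may thus not be the seed of the reads counted. Seeds are in capitals.
miR-375-5p: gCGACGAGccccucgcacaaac
miR-192-5p: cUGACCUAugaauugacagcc
miR-215-5p: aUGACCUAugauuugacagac
miR-194-5p: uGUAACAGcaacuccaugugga
miR-194-1-3p: cCAGUGGAgcugcuguuacuuc
miR-194-2-3p: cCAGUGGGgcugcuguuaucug
The products of Mir192 and Mir215 hold the same seed, UGACCUA, and no other gene of the table had it. Along their 21 bases they were identical at 18, and the changes from the Mir192 to the Mir215 product, counted from 1 at the 5′ end, were C1A, A12U and C20A. Reads of these products can thus be told apart, but the products share the letters that pair with targets.

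Mir194-1 and Mir194-2 lie on different chromosomes and make the same 5p product. Their hairpins are printed with the longest stretch common to both in capitals.
Mir194-1: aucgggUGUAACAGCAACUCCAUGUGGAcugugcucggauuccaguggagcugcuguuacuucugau
Mir194-2: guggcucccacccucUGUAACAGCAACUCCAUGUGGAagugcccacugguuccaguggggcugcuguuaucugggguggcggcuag
The common stretch is 22 nucleotides long and is miR-194-5p itself. A read of exactly that product fits both places equally. Of the windows of 22 nucleotides, 1 of 46 in Mir194-1 and 1 of 65 in Mir194-2 also occurred in the other copy, so a read that reaches past the common stretch on either side, or comes from the 3p arm, differs between the copies. The 3p products were identical at 18 of 22 bases, with A8G, C19U, U20C and C22G from Mir194-1 to Mir194-2. The first of these changes falls in the seed. Reads that fit more than 1 place are kept in a separate row of the deposited tables, so the counts of both Mir194 copies are lower limits, and how many such reads came from miR-194-5p was not analysed here.

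Coordinates are those of mm10 with the annotation GENCODE M21. Mir375 (ENSMUSG00000065616) lies on chromosome 1 from 74900658 to 74900721, on the minus strand, in no other annotated gene, between the coding genes Cryba2 and Cfap65. Mir194-2 (ENSMUSG00000065582; 6264643 to 6264728) and Mir192 (ENSMUSG00000065523; 6264844 to 6264932) stand 115 nucleotides apart on the plus strand of chromosome 19, also in no other annotated gene, between Atg2a and Ehd1. Mir194-1 (ENSMUSG00000065581; 185313319 to 185313385) and Mir215 (ENSMUSG00000065562; 185313581 to 185313692) stand 195 nucleotides apart on the plus strand of chromosome 1. Both lie in the antisense transcript 2010103J01Rik, Mir194-1 in an intron and Mir215 overlapping an exon, opposite to an intron of Iars2. Each cluster thus has 1 copy of Mir194 beside 1 gene with the shared seed.

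The levels covered a range from less than 1 CPM to 1613 CPM (counts per 1000000 counts on microRNA genes). Replicate 1 had 4525636 such counts and replicate 2 had 3604284. Intervals are exact 95% binomial (Clopper-Pearson) intervals of 1 library and cover counting error only, since reads copied by PCR are not independent molecules. Apart from these intervals, a count of 0 was taken to allow up to 3 counts, a set value. That is 0.663 CPM in replicate 1 and 0.832 CPM in replicate 2. The exact interval of a count of 0 reaches 0.815 CPM in replicate 1 and 1.02 CPM in replicate 2. The mature products printed above are 21 or 22 nucleotides long, so 1 read stands for 1 product and counts were not divided by hairpin length. For Mir122 and the 3p arm of Mir375, which are not printed, the same was assumed. How well each sequence is captured was not measured, so ratios between genes compare reads and not molecules.

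Mir375, the endocrine gene, had 6380 counts in replicate 1 and 5812 in replicate 2. That is 1410 CPM (interval 1375 to 1445) and 1613 CPM (1571 to 1654), or 1511 ± 143 CPM (SD, n = 2). It ranked 84th of 1973 gene rows by mean CPM, and 83rd and 80th in the single libraries. Replicate 2 was the higher library, by 1.14 times, and the counting intervals of the libraries did not overlap.

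Mir122, the hepatocyte gene, had 77 counts in replicate 1 and 47 in replicate 2, or 17.0 CPM (13.4 to 21.3) and 13.0 CPM (9.58 to 17.3). Its mean was 15.0 ± 2.8 CPM, at rank 279. It lies on chromosome 18 from 65248861 to 65248926, plus strand, inside the exonic sequence of AC157910.3, an annotated long non-coding RNA (the identifier of Mir122 is ENSMUSG00000065402). The intervals of the libraries overlapped, and the lower bound in replicate 2 fell below the threshold of 10 CPM.

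On chromosome 19, Mir192 had 284 and 258 counts in replicates 1 and 2, or 62.8 CPM (55.7 to 70.5) and 71.6 CPM (63.1 to 80.9). Its mean was 67.2 ± 6.2 CPM, at rank 217. Its neighbour Mir194-2 had 207 and 150 counts, or 45.7 CPM (39.7 to 52.4) and 41.6 CPM (35.2 to 48.8), with a mean of 43.7 ± 2.9 CPM at rank 236. Mir192 stood above Mir194-2 in both libraries, by 1.37 times (1.14 to 1.65) in replicate 1 and 1.72 times (1.40 to 2.12) in replicate 2. That order holds only for reads that could be placed, since Mir194-2 lacks any read that fits both copies.

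On chromosome 1 the second cluster was near the limit of counting. Mir215 had 3 counts in replicate 1 and 4 in replicate 2, or 0.663 CPM (0.137 to 1.94) and 1.11 CPM (0.302 to 2.84). Mir194-1 had 1 count in each library, or 0.221 CPM (0.0056 to 1.23) and 0.277 CPM (0.0070 to 1.55). Neither was detected at 10 CPM. Among the products that share a seed, Mir192 exceeded Mir215 by 94.7 times (32.1 to 462) in replicate 1 and 64.5 times (24.9 to 239) in replicate 2, and no stretch of 20 nucleotides is shared there, since the longest stretch of the Mir215 hairpin found in any other hairpin was 11 nucleotides. The sum of Mir192 and Mir194-2 exceeded the sum of Mir215 and Mir194-1 by 123 times (47.6 to 452) and 81.6 times (34.7 to 253). The intervals of the 2 libraries overlapped in both ratios, so the size of the gap is known only roughly, while its direction was the same in both libraries.

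**Figure D1:**
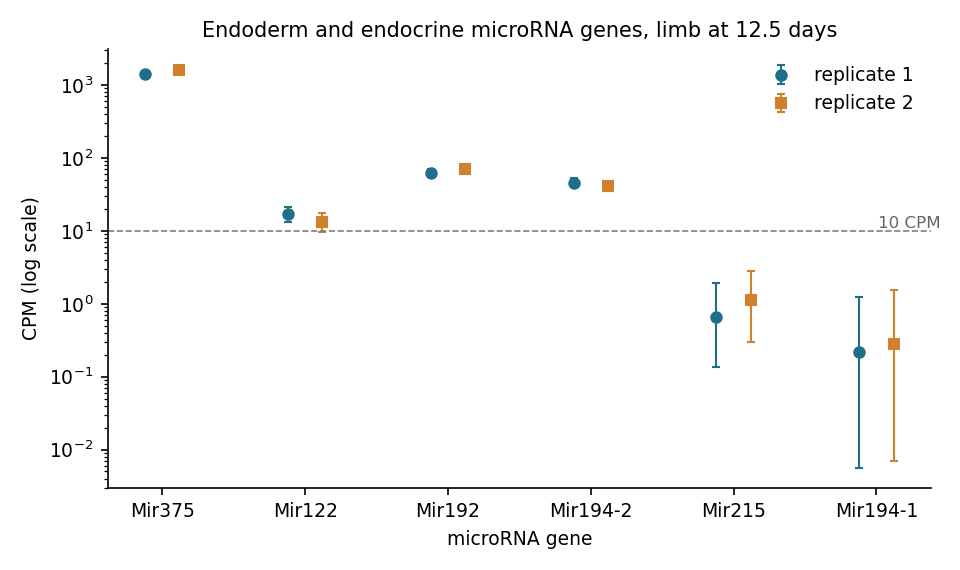
CPM of the 6 genes in each library on a log axis, with circles for replicate 1 (88 embryos), squares for replicate 2 (68 embryos) and bars for exact 95% binomial intervals. Mir375 stands at 1410 and 1613 CPM, Mir192, Mir194-2 and Mir122 lie above the dashed line at 10 CPM, and Mir215 and Mir194-1 lie below it with wide bars.

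In all, 4 of the 6 genes were detected, that is, had 10 CPM or more in both libraries, where 14.5% of all gene rows were (286 of 1973). The 6 were picked with earlier results of these data known, so their count is a description. Their median was 29.4 CPM. Over all gene rows the median was 0 CPM, because 1256 rows (63.7%) had no count, and over the 286 detected genes it was 269 CPM, with quartiles at 69.2 and 1876 CPM. Mir375 thus lay between the median and the upper quartile of detected genes, and Mir192, Mir194-2 and Mir122 lay below the lower quartile. Together the 6 genes held 1638 ± 144 CPM, of which Mir375 gave 92.2%. The 5 liver and gut genes held 126 CPM in replicate 1 and 128 CPM in replicate 2.

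**Figure D2:**
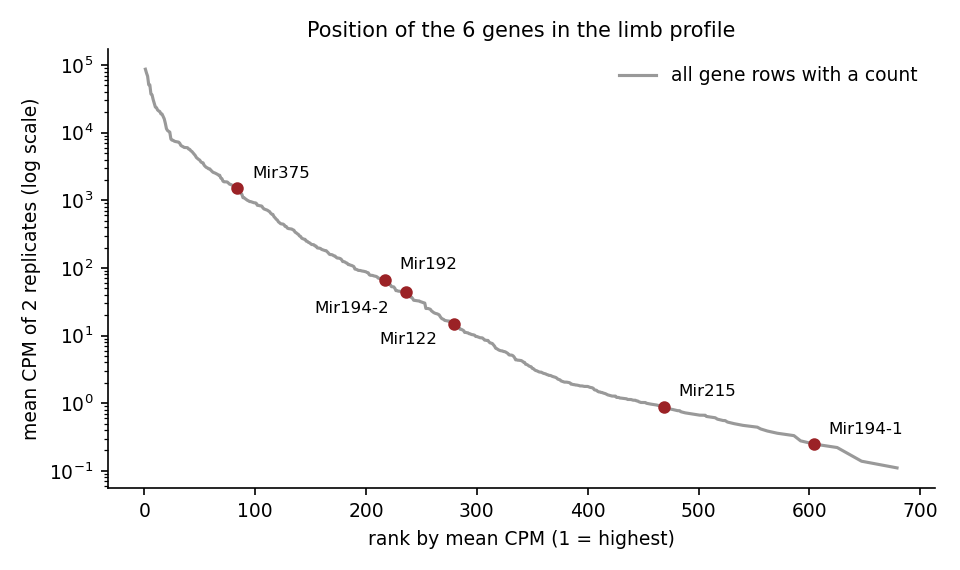
Mean CPM over 2 replicates (log axis) against rank for all gene rows with a symbol and a count, as a grey line, with the 6 genes as red points. Mir375 sits at rank 84, Mir192, Mir194-2 and Mir122 sit at ranks 217, 236 and 279, and Mir215 and Mir194-1 at ranks 469 and 604.

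By reads that could be placed, Mir375 exceeded the liver and gut genes in both libraries. Against their sum it was 11.2 times higher (10.2 to 12.2) in replicate 1 and 12.6 times higher (11.5 to 13.9) in replicate 2, or 11.9 ± 1.0 times (SD, n = 2). Since the counts of both Mir194 copies are lower limits, these ratios are upper limits. Against the sum of Mir122, Mir192 and Mir215 alone, a smaller sum by construction, the ratios were 17.5 (15.8 to 19.5) and 18.8 (16.8 to 21.2). No test across the 2 libraries was run, and the intervals cover counting error within each library.

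The ratio of Mir375 to single genes was most alike between the libraries for Mir192 and least alike for Mir122, among the genes that were detected. Against Mir192, Mir375 was 22.5 times higher in each library (19.9 to 25.4 in replicate 1 and 19.9 to 25.6 in replicate 2). Against Mir194-2 the ratios were 30.8 (26.8 to 35.6) and 38.7 (32.9 to 45.9), which are upper limits for the same reason. Against Mir122 they were 82.9 (66.2 to 105) and 124 (92.9 to 168). In each of the last 2 comparisons the intervals overlapped. Against Mir215, with its 3 and 4 counts, the ratios were 2127 (727 to 10315) and 1453 (567 to 5335), which gives little more than the order of size. Among the liver and gut genes, Mir192 exceeded Mir122 by 3.69 times (2.86 to 4.81) and 5.49 times (4.01 to 7.66), and Mir194-2 exceeded Mir122 by 2.69 times (2.06 to 3.54) and 3.19 times (2.29 to 4.53). The order Mir375, Mir192, Mir194-2, Mir122 was thus the same in both libraries for reads that could be placed, and each step was larger than counting error.

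The genes closest to each member in level were named by the difference of log2 mean CPM over the 2 libraries. Mir375 stood between Mir107 (1568 ± 123 CPM, which shares a stretch with another gene) and Mir22 (1357 ± 122 CPM), at log2 differences of 0.05 and 0.16. Mir107 was above Mir375 in replicate 1 (1655 CPM) and below it in replicate 2 (1481 CPM), so their order was not resolved, while Mir22 was lower in both libraries (1271 and 1443 CPM). Mir192 lay between Mir574 (67.2 ± 4.0 CPM) and Mir30c-1 (65.8 ± 1.1 CPM, with a shared stretch). Mir194-2 lay between Mir18b (43.9 ± 1.7 CPM) and Mir1955 (41.7 ± 1.8 CPM). Mir122 lay between Mir302c (15.1 ± 3.0 CPM), of pluripotent cells, and Mir211 (14.4 ± 2.7 CPM). For Mir192, Mir194-2 and Mir122 the SDs overlapped with those of both neighbours.

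Between the libraries, 1 of the 4 members with enough counts differed by more than counting error. The two-sided exact binomial test compares these 2 libraries, not conditions, and 182 of the 436 genes tested passed it after Benjamini-Hochberg adjustment (threshold 0.05), or 41.7%. Of these, 89 (20.4% of the genes tested) were higher in replicate 2 and 93 in replicate 1. Mir375 was the member called, with a log2 ratio of replicate 2 over replicate 1 of 0.19 (counting SE 0.026) and an adjusted p of 7.89e-13 in the exact binomial test. Mir192 had nearly the same log2 ratio, 0.19 (SE 0.12, adjusted p = 0.245), and with its lower count it was not called. Mir194-2 had -0.13 (SE 0.15, adjusted p = 0.549) and Mir122 had -0.38 (SE 0.27, adjusted p = 0.309). Mir215 and Mir194-1 had fewer than 10 counts in sum and were not tested. The median size of the log2 ratio over detected genes was 0.19, the size seen for Mir375.

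The difference in Mir375 depended on what the counts were divided by. Counts on microRNA genes made up 42.5% of the reads of replicate 1 and 37.0% of those of replicate 2. Per 1000000 reads of all kinds, Mir375 stood at 599 in replicate 1 and 597 in replicate 2. With these totals in the exact binomial test, an alternative added after the data were seen, its log2 ratio was -0.01 and its adjusted p 0.892. Mir192 likewise stood at 26.7 and 26.5 on this scale. This scaling lowers every log2 ratio by 0.20, so relative to the median gene nothing moved, and it turned the calls to 43 higher in replicate 2 and 161 higher in replicate 1. In the negative binomial exact test of edgeR, whose dispersion comes from the same 2 replicates, Mir375 had p = 0.535 and an adjusted p of 1, and 0 of 436 genes were called. Before adjustment 25 genes had p under 0.05, and the lowest adjusted p was 0.0876.

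**Figure D3:**
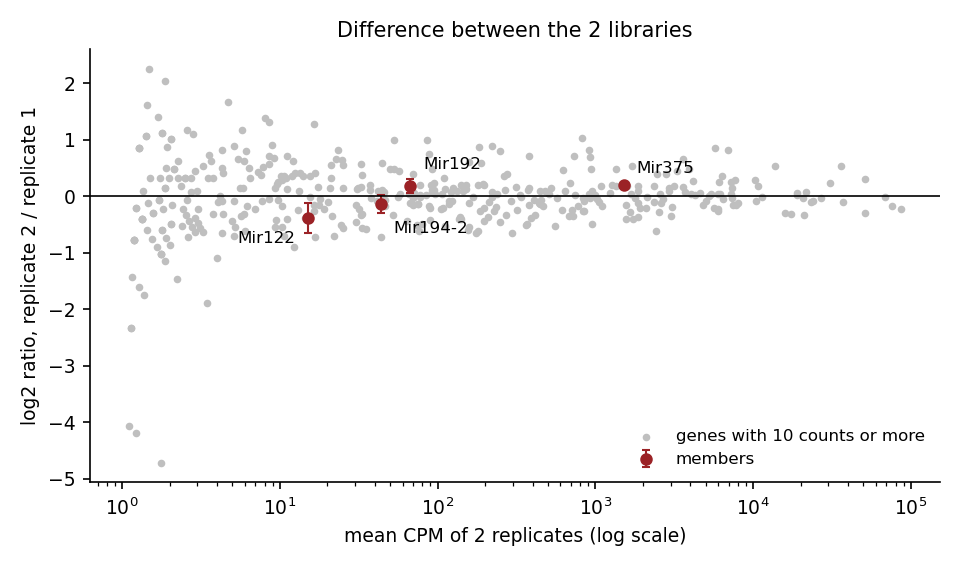
Log2 ratio of CPM in replicate 2 over replicate 1 against mean CPM (log axis) for genes with 10 counts or more in sum and a symbol (grey), with the 4 tested members in red and bars for the counting SE. Mir375 and Mir192 both sit at 0.19, Mir194-2 at -0.13 and Mir122 at -0.38, all inside the cloud of other genes.

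Other microRNA genes known from endoderm organs and endocrine cells were set beside the 6. Of 16 such genes all had a row and 5 were detected, where 14.5% of all gene rows were (286 of 1973). None had 0 counts in both libraries, where 63.7% of all gene rows did, and the median was 5.12 CPM. Among 7 genes of endocrine cells 2 were detected. Mir204, in an intron of Trpm3, had 219 CPM in replicate 1 and 203 CPM in replicate 2 (211 ± 11 CPM). Mir7-1, a copy of the islet microRNA miR-7 in an intron of the widely expressed gene Hnrnpk, had 84.2 and 85.5 CPM (84.8 ± 0.9 CPM) and shares a stretch with Mir7-2. For reads that could be placed, Mir375 thus had the highest level of the endocrine genes measured, above Mir204 by more than the spread between replicates. Of the 7 genes, 4 share a stretch with another gene, and their counts lack any read that fits more than 1 place.

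Among 4 genes of the acinar pancreas only Mir148a, which is also a liver gene, was detected, with 891 and 919 CPM (905 ± 19 CPM). The other 3 acinar genes lay between 1.14 and 5.93 CPM in the mean. Of 4 liver genes 2 were detected, Mir148a and Mir101b, which lies in an intron of Rcl1 and had 1948 and 1804 CPM (1876 ± 102 CPM, with a shared stretch). Both stood above Mir122. Each gene is listed by where it is known from, and whether it is restricted to that organ was not tested. Of 2 gut genes Mir31 was detected at 88.6 and 95.4 CPM (92.0 ± 4.8 CPM), above Mir192 in both libraries. Mir101b, which had the most counts of this list (8815 and 6501), was higher in replicate 1 by more than counting error (log2 ratio -0.11, counting SE 0.024). That is less than the median size of the log2 ratio over detected genes, 0.19. The 11 genes that were not detected ranged from 0.139 to 5.93 CPM in the mean, and Mir215 and Mir194-1 fell within that range while Mir122 lay above it.

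**Figure D4:**
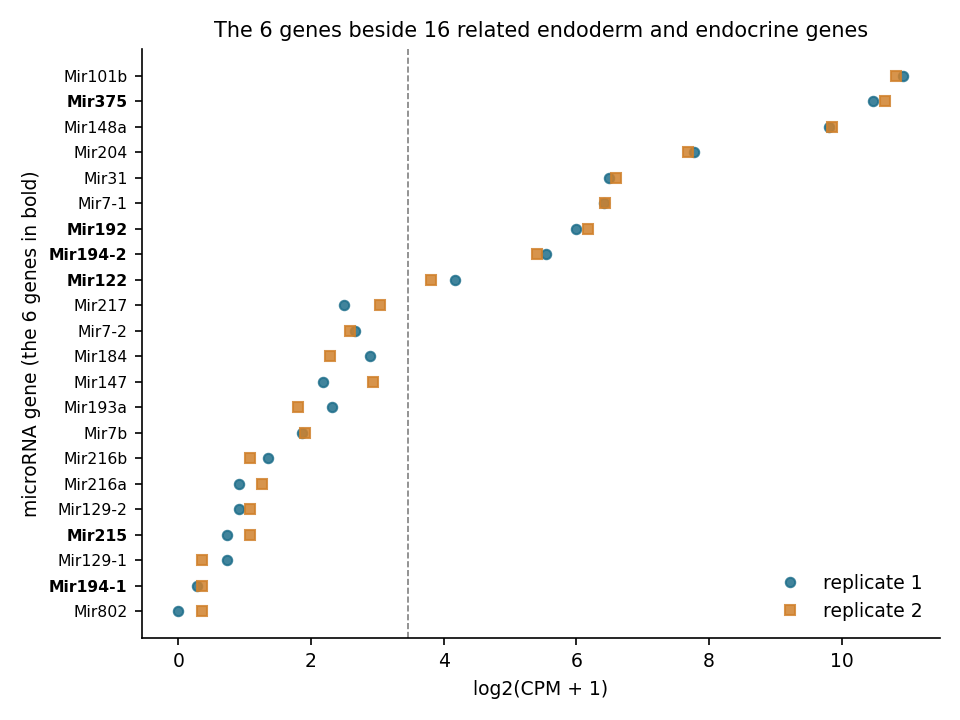
log2(CPM + 1) of the 6 genes (bold names) and 16 related genes, ordered by mean CPM, with circles for replicate 1, squares for replicate 2 and a dashed line at 10 CPM. Mir101b is highest at 1876 CPM, followed by Mir375, and Mir215 and Mir194-1 sit near the lower end.

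Markers of the tissue and of other cells in the pools give the setting. The limb genes Mir196b (Hox), Mir214 (mesenchyme), Mir140 (cartilage) and Mir206 (muscle) stood at 86831, 51056, 23899 and 2347 CPM in the mean. All 7 ectoderm genes were detected and summed to 18586 CPM in replicate 1 and 18972 CPM in replicate 2. The highest, Mir205, exceeded Mir375 by 5.31 times (5.17 to 5.46) and 4.54 times (4.41 to 4.67). Mir203, Mir429 and Mir200c also stood above Mir375 in the mean, at 4587, 3712 and 1585 CPM against 1511 CPM. Mir200b, Mir200a and Mir141 stood below it, at 982, 313 and 196 CPM. All 3 sensory cell genes were detected, at 6413 and 6237 CPM in sum, with Mir182 highest at 3011 ± 505 CPM. All 3 genes of red blood cells were detected and summed to 257 CPM in replicate 1 and 180 CPM in replicate 2, led by Mir451a. Of these 3 genes, 2 were higher in replicate 1 and 1 was higher in replicate 2. The 3 sensory cell genes split in the same way, so such a split was not particular to the genes of red blood cells. Of 4 genes of white blood cells 3 had a row and 2 were detected, at 581 and 655 CPM in sum, led by Mir155. Of 9 neural genes 8 had a row and 3 were detected, at 327 and 463 CPM in sum, led by Mir128-1. Mir9-2 and all 3 Mir124a genes had 0 counts, but each of these has copies that share a stretch. The part of these cells in the levels of the 6 genes was not tested.

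The members differed in sequence features. The Mir375 hairpin has 64 nucleotides and 67.2% G and C, a value reached by 115 of the 1894 matched hairpins, whose median was 51%. Mir194-2 had 60.5%, Mir194-1 50.7%, Mir192 50.6%, Mir215 43.8% and Mir122 42.4%. The longest stretch that Mir375 had in common with any other hairpin was 9 nucleotides, and that of Mir192 and of Mir122 was 12. None of these 3 genes was thus counted as sharing a stretch with another gene. Exact stretches do not detect copies with single changes, as the products of Mir192 and Mir215 show, which were identical at 18 of 21 bases. On the strand taken as opposite to the gene, 5 members had 0 counts in both libraries and Mir122 had 1 count in replicate 1. That is under the 3 counts that a count of 0 was taken to allow. The column was taken as the opposite strand because it held few counts, so its low values are no separate result.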

How the data were processed

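Small RNA of limb tissue was sequenced in 2 replicates. Per the README files deposited with the libraries, reads were placed on mm10 and counted over GENCODE M4. The sources used here do not give the aligner, the counter or their settings. The deposited count tables hold whole-number counts in 3 columns, for both strands together, the annotated strand and the other strand, and those of the annotated strand were used. The tables have no header, so the strand of each column was read from the values. The first column equals the sum of the others in all gene rows. Of these others, the column with most of the counts was taken as the annotated strand. The 4 rows that name no gene (57.5% of the reads in replicate 1 and 63.0% in replicate 2) were left out. Of these, reads that map to several places were 27.2% and 23.7% of all reads.

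Gene identifiers were matched without version to GENCODE M21 (1894 of 1973 rows). A shared stretch is 20 nucleotides or more found in the hairpin of another gene. Log2 ratios add 0.5 counts, and genes with 10 counts or more in sum were tested across all genes. Tools were Python 3.11.15, scipy 1.17.1, R 4.3.3, edgeR 4.0.16 and, for size factors, DESeq2 1.42.0. The labels call the pools biological replicates. The members, lists and tests were chosen with earlier results of these data known. Named genes are the members, their neighbours in level, detected related genes and the highest gene of each marker list. The other ectoderm genes, Mir9-2 and the Mir124a genes were named after their values were seen. Alternatives covered strand, scaling, thresholds, test and leaving out each replicate.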

Additional observations from a re-analysis of the deposited data

How the results depend on the processing

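The mean CPM of all 6 genes changed by less than 1 SD with both strands, with TMM scaling and with DESeq2 size factors. Per 1000000 reads of all kinds the means were 598 for Mir375, 26.6 for Mir192, 17.4 for Mir194-2, 6.03 for Mir122, 0.346 for Mir215 and 0.0983 for Mir194-1. Divided by gene counts without the 10 highest genes they were 2955, 131, 85.5, 29.4, 1.73 and 0.487 in the same order, since the total is smaller. At 100 CPM 1 member was detected in place of 4, and at 1 CPM, with both strands or with TMM scaling 4 were. The ratio of Mir375 to the liver and gut genes was 18.2 without the genes that share a stretch, against 11.9. Leaving out 1 replicate gave 1410 to 1613 CPM for Mir375, 62.8 to 71.6 for Mir192, 41.6 to 45.7 for Mir194-2, 13.0 to 17.0 for Mir122, 0.663 to 1.11 for Mir215 and 0.221 to 0.277 for Mir194-1, with the ratio from 11.2 to 12.6 and 4 members detected. With all reads as library totals the log2 ratio of Mir375 was -0.0060 and that of Mir192 -0.0097, both turned from 0.19. The negative binomial test of edgeR called 0 genes and not Mir375 (log2 ratio 0.21), against 182 in the binomial test, whose count ranged from 174 to 204 under the other settings. No paired analysis was possible because there is only 1 group. Depth limits Mir215 and Mir194-1, at 1 to 4 counts a library.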
